A study of Mus musculus with 6 samples.

Results

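The 10 lysine acetyltransferase genes Kat2a, Kat2b, Hat1, Kat5, Kat6a, Kat6b, Kat7, Kat8, Ep300 and Crebbp were measured by RNA-sequencing in satellite cells, the resident stem cells of muscle. They were chosen by gene symbol and by no measured value of these genes, though with earlier results of these data known. All 10 passed the filter on low reads, among 17152 genes tested and 54115 genes with a matched transcript. The study compared 3 Pax7WT with 3 Pax7KR libraries, and the labels describe them as biological replicates without stating whether each came from 1 mouse. Pax7KR mice carry an arginine in place of 1 acetylated lysine of PAX7, introduced with Cas9 into C57BL/6J zygotes. Both groups share the C57BL/6J strain, and per the study's methods the mice were 6 to 8 weeks old. Cells were sorted from uninjured hindlimb muscles as α7-INTEGRIN+ and CD34+, and as negative for CD31, CD11b, SCA-1 and CD45. Each library was made from 15 ng of total RNA. The labels give no sex. The allele changes PAX7 and none of the 10 genes, so no member is the targeted gene.

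Lysine acetyltransferases move an acetyl group from acetyl-CoA to lysines of histones and of other proteins, and histone acetylation by these enzymes accompanies active transcription. The GNAT enzymes KAT2A and KAT2B work in the SAGA and ATAC complexes, the MYST enzymes each work in complexes with scaffold proteins of their own, and EP300 and CREBBP are large coactivators that many transcription factors recruit. HAT1 acts on newly made histones before they reach chromatin. The study examined several acetyltransferases for PAX7, among them p300, TIP60 (KAT5) and MYST1 (KAT8), and the deacetylases SIRT1 and SIRT2. Kat8, Sirt2 and Pax7 are given side by side here. The comparison asks whether the RNA of the acetyltransferases differs when PAX7 loses an acetylated lysine.

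The kinship of the members can be seen in their coding sequence. Shown here are the 30 bases around the acetyl-CoA-binding loop of 8 members, 5′ to 3′ on the coding strand, with the 18 bases that code the loop in capitals.
Kat2a: aatgagCAGGTCAAGGGCTATGGCacccac
Kat2b: aatgaaCAAGTCAAGGGCTATGGAacccac
Hat1: ccatttCAAGGTCAGGGCCACGGTgctcaa
Kat5: ccctacCAGCGCCGGGGCTATGGCaagctg
Kat6a: caatacCAACGTAAGGGCTACGGCaggttt
Kat6b: cagcacCAAAGGCAAGGATTTGGAcgcttt
Kat7: cagtacATGCGACAGGGCTACGGGaagatg
Kat8: ccctacCAGCGGCGTGGCTATGGGaagttt

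The loop was found by a pattern in the translated reading frames that was written after the frames had been read. A more general form of the motif matched 4 places in the frames of Ep300 and of Crebbp and 0 in that of Kat7. The pattern used here was written so as to include Kat7, and it had 0 matches in Ep300 and Crebbp, which says only that these letters are not there. Kat2a and Kat2b shared 27 of the 30 bases, and Kat5 and Kat8 shared 25. Kat6a and Kat6b shared 18, fewer than the 20 that Kat6a shared with Kat5, with Kat7 and with Kat8. Hat1 shared 11 to 17 bases with the other 7. The stretch of Kat8 lies in exon 8 of 11 of Kat8-201, at chr7:127924655-127924684 on the plus strand of GRCm38. The stretches of Kat2a (chr11:100706954-100708223, minus strand) and Kat2b (chr17:53654551-53659332, plus strand) each span an exon junction, so these coordinates include an intron. The others lie within single coding exons, at chr2:71421652-71421681 for Hat1 (plus), chr19:5605385-5605414 for Kat5 (minus), chr8:22926428-22926457 for Kat6a (plus), chr14:21637598-21637627 for Kat6b (plus) and chr11:95280404-95280433 for Kat7 (minus).

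How far paralogues share sequence bears on how well their reads can be told apart, and it was read here in stretches of 31 bases. The stretch length used in the authors' quantification is not given in the sources used here. The longest run shared by the coding sequences of Kat2a and Kat2b was 19 bases, and that of Ep300 and Crebbp was 29 bases. Both are printed because they fall short of 31, which does not by itself show that the reads can be told apart.
Kat2a and Kat2b: tggagaatgtgtcagagga
Ep300 and Crebbp: tttgaacaagaaattgaccctgtcatgca

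The first run lies at chr11:100711442-100711460 (minus strand, exon 3 of 18) in Kat2a and at chr17:53624370-53624388 (plus strand, exon 3 of 18) in Kat2b. The second lies at chr15:81631797-81631825 (plus strand) in Ep300 and chr16:4108064-4108092 (minus strand) in Crebbp, in exon 18 of 31 of each. Kat6a and Kat6b shared a longer run of 32 bases, and 7 stretches of 31 bases were found in transcripts of both. Over all transcripts of a gene, the share of 31-base stretches also found in another gene was highest for Kat2b at 14.6%, all of it with the pseudogene Kat2b-ps, and next for Kat8 at 8.99%. The counting gave Kat2b-ps at most 1 read in a library. It gave 0 reads in every library to Gm8523, the gene that shares most with Kat8, with 101 of the 257 shared stretches. The genes that hold the rest of the 257 were not examined. For Kat2a, Kat5 and Hat1 the share was 0, and for the remaining members it was 0.196% to 2.38%. Kat7 shared 85 of its 134 such stretches with Ankrd17, a gene with 3352 to 5509 reads in a library. The effect of this on the Kat7 values was not tested. Exons of Kat5 overlap those of Rnaseh2c, a gene on the opposite strand with 310 to 424 reads, over 426 bases. The library kit keeps strand, but the strand setting of the quantification is not given in the sources used here, so the Kat5 values are uncertain there.

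The libraries held 17822367 to 27908054 estimated reads. The summed level of 12 satellite cell markers was 5450 to 6010 TPM (the deposited level per transcript length) in Pax7WT and 6010 to 6380 TPM in Pax7KR. All 12 were tested, and 5 had a higher estimate in Pax7KR. The 10 endothelial markers summed to 126 to 166 and 142 to 205 TPM, with 9 of 10 estimates higher in Pax7KR. Among the immune markers, Adgre1, C1qb and Cd3e were each at 0 in at least 1 library. The 8 fibro-adipogenic markers summed to 1240 to 1360 and 1290 to 1420 TPM, with 3 of 8 estimates higher in Pax7KR. The 5 erythroid genes summed to 719 to 1390 and 1260 to 2050 TPM, with 5 of 5 higher. Estimates were higher for 0 of 8 smooth muscle and pericyte markers (805 to 894 and 731 to 868 TPM), 2 of 7 Schwann and glial markers (332 to 372 and 317 to 339 TPM) and 2 of 8 myofibre markers (71.9 to 93.3 and 68.1 to 98.5 TPM). The summed levels of the genotypes overlapped in each of these lists from other cells. The part of other cells in the values given here was not tested. Pax7KR replicate 2 stood apart in Y-linked genes. Its level of Ddx3y was 24.4 TPM, against 53.5 to 61.9 TPM in the other 5 libraries. Values without this library are therefore given for each member. Xist was low in all 6 libraries, at 0.272 to 1.08 TPM in Pax7WT and 0.042 to 0.0865 TPM in Pax7KR, with no overlap between the genotypes. The cause was not tested. In Pax7WT replicate 2 the dissociation response genes summed to 18300 TPM, against 24100 to 30200 TPM elsewhere. In bulk RNA, fewer cells of a type and less RNA per cell cannot be told apart.

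RNA of all 10 enzymes was measured in each library of sorted satellite cells, with mean levels per transcript length from 19.0 to 84.1 TPM. Kat5, which encodes TIP60 of the NuA4 complex, had the highest mean level of 84.1 TPM over the 6 libraries, above 90.2% of the genes tested. Kat7 followed at 63.2 TPM, Ep300 at 54.7 TPM, Kat2b at 52.1 TPM, Kat6a at 49.4 TPM and Kat2a at 43.7 TPM. Crebbp was at 36.7 TPM, Kat8 at 32.5 TPM, Hat1 at 20.7 TPM and Kat6b at 19.0 TPM, the last above 59.8% of the genes tested. Neighbours in this order had overlapping ranges over the 6 libraries, with the exception of Kat8 (30.4 to 36.0 TPM) and Hat1 (19.4 to 22.9 TPM). Kat5 was above Kat7 in 6 of 6 libraries and Ep300 above Kat2b in 4 of 6, so the middle of the order was the least settled. The 10 genes summed to 446 ± 23.6 TPM (SD, n = 3) in Pax7WT and 466 ± 26.6 TPM (SD, n = 3) in Pax7KR, with ranges of 420.4 to 466.8 and 440.2 to 493.3. Kat5 held 18.4% of that sum on average and Kat6b held 4.16%. Part of the Kat5 level lay on short transcripts, with a mean share of 15.1% for Kat5-212 (839 bases) and 10.3% for Kat5-204 (471 bases). By reads with no scaling for length, Kat5 was at rank 8 of the 10. How far the first rank of Kat5 rests on these short transcripts was not tested.

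**Figure D1:**
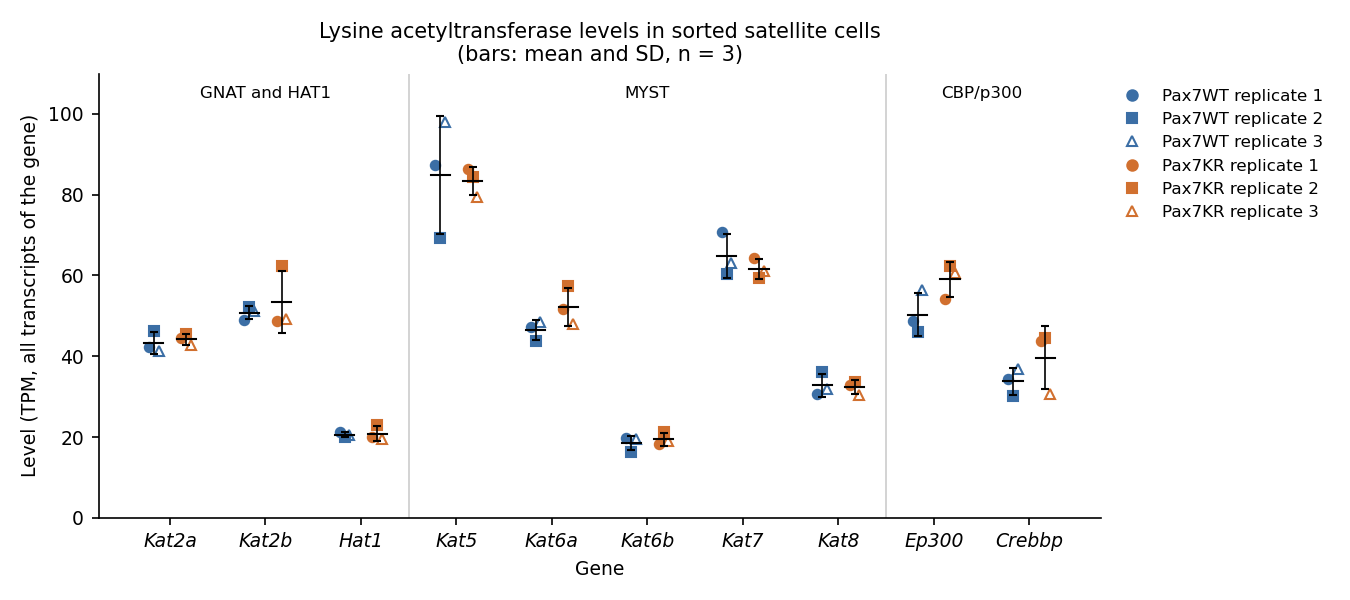
Level in TPM of each acetyltransferase gene in each library, with Pax7WT in blue, Pax7KR in orange and black bars for mean and SD (n = 3). Kat5 lies highest (69.2 to 98.0 TPM) and Kat6b and Hat1 lowest (16.4 to 22.9 TPM), and the genotypes overlap for each gene.

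Part of these levels came from transcripts that are not annotated as protein-coding. Protein-coding transcripts made up 99.0% to 100% of the Hat1 level and 94.4% to 100% of the Kat6a level over the libraries. For Kat2a the share was 41.5% to 50.2%, and a processed transcript, Kat2a-204, held 38.8% to 48.8% of the gene's TPM. For Ep300 it was 57.9% to 76.8% and for Kat8 58.6% to 80.0%. With protein-coding transcripts alone, Kat5 (63.9 TPM) and Kat7 (60.4 TPM) kept the first ranks, and Kat2a moved from rank 6 to rank 9 at 20.6 TPM. The short transcripts Kat5-204 and Kat5-212 are annotated as coding and remain in this Kat5 value. Shares between transcripts of a gene are estimates of the quantification. The coding transcripts Kat2a-201 and Kat2a-202, for example, took 37.8% and 6.54% of the gene in Pax7WT replicate 2 and 18.4% and 31.7% in Pax7KR replicate 2.

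No acetyltransferase gene was called between the genotypes. In edgeR, 0 of the 10 passed an adjusted p of 0.1, beside 0 of all 17152 genes tested (0%). An unadjusted p under 0.05 was reached by 0 of the 10, beside 803 of all genes (4.68%). Normalised read counts (CPM, the share of a library's reads scaled by TMM) of the genotypes did not overlap for 0 of the 10, beside 1773 of all genes (10.3%). DESeq2 called 0 of the 10 and 30 of 17138 genes (0.175%), and limma-voom called 0 of the 10 and 0 of all genes. The median log2 fold change of Pax7KR over Pax7WT was 0.055 for the members and -0.0037 for all genes, and the median absolute change was 0.061 and 0.114. In the main edgeR fit all 10 intervals held 0, and together they ran from -0.28 to 0.28 on the log2 scale, which is 0.823-fold to 1.21-fold. Over all fits the member estimates themselves ran from -0.14 to 0.20, so these bounds hold for the main fit alone. Estimates were positive for 7 members and negative for 3, but with offsets for transcript length those of Kat5 and Kat8 were negative, and with scaling to total reads alone that of Kat2a was 0.0026. A p that misses the threshold does not show equal levels, and the intervals give the sizes that the main fit of these 6 libraries could not tell from 0.

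**Figure D2:**
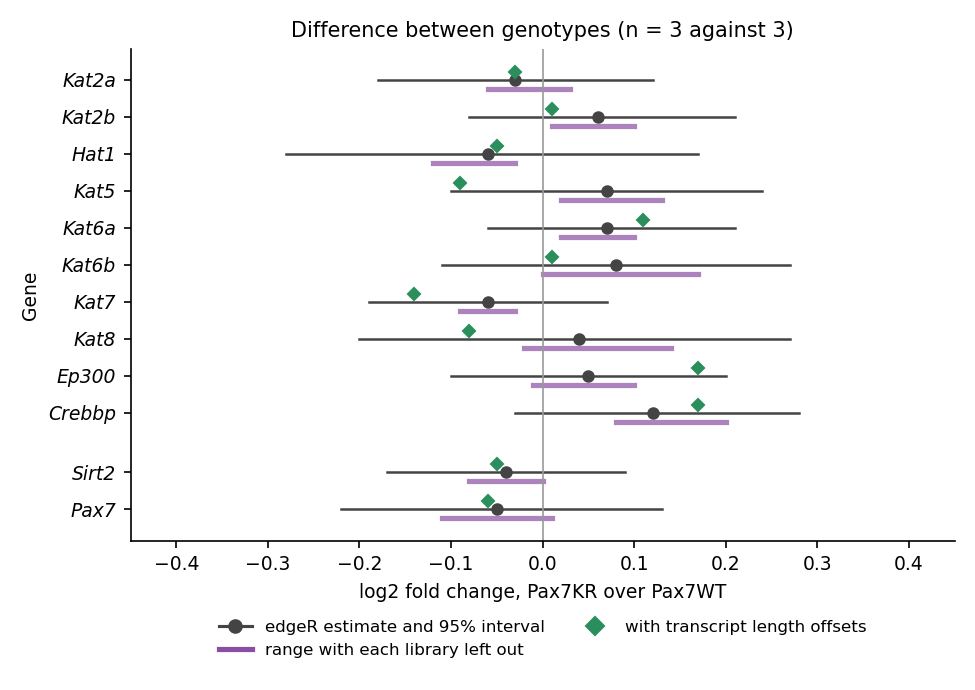
Log2 fold change of Pax7KR over Pax7WT for each acetyltransferase gene and, below the gap, for Sirt2 and Pax7. Black shows the edgeR estimate with its 95% interval, purple the range with each library left out, and green the estimate with transcript length offsets, and every interval spans 0, with that of Hat1 reaching down to -0.28.

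Among the GNAT genes, Kat2a (ENSMUSG00000020918, chr11:100704746-100712465, minus strand) encodes GCN5, the catalytic subunit of SAGA. Its CPM was 73.4, 82.0 and 71.9 in the Pax7WT libraries and 73.9, 75.8 and 73.2 in the Pax7KR libraries. The Pax7KR values all lay inside the Pax7WT range. The log2 fold change was -0.03 ± 0.07 (SE, 95% interval -0.18 to 0.12, edgeR adjusted p = 0.998), and -0.042 without Pax7KR replicate 2. Kat2b (ENSMUSG00000000708, chr17:53566861-53672720, plus strand) encodes PCAF, the paralogue that takes the same place in these complexes. Its CPM was 97.4, 88.3 and 93.7 in Pax7WT and 94.6, 105 and 92.8 in Pax7KR, so that only Pax7KR replicate 2 lay above all others. The log2 fold change was 0.06 ± 0.07 (SE, 95% interval -0.08 to 0.21, edgeR adjusted p = 0.998) and 0.008 without that library. Per length, Kat2b stood above Kat2a in each of the 6 libraries, with a log2 ratio of Kat2a to Kat2b of -0.46 to -0.13.

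Hat1 (ENSMUSG00000027018, chr2:71388958-71441622, plus strand) had the fewest reads of the family, 321 to 523 in a library. Its CPM was 19.2, 18.1 and 18.3 in Pax7WT and 17.1, 19.3 and 17.1 in Pax7KR. A pair of Pax7KR libraries lay below all Pax7WT libraries and the remaining one above them. The log2 fold change was -0.06 ± 0.10 (SE, 95% interval -0.28 to 0.17, edgeR adjusted p = 0.998), and it was -0.118 without Pax7KR replicate 2. Its interval was among the widest of the members, beside that of Kat8.

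Of the MYST genes, Kat5 (ENSMUSG00000024926, chr19:5603014-5610237, minus strand) had a CPM of 57.3, 50.4 and 50.7 in Pax7WT and 52.7, 54.3 and 59.2 in Pax7KR. The spread within each genotype was larger than the difference between them, at 0.07 ± 0.08 on the log2 scale (SE, 95% interval -0.10 to 0.24, edgeR adjusted p = 0.998). The sign depended on the scale, since with transcript length offsets the value was -0.09, while without Pax7KR replicate 2 it was 0.083. In TPM it was also the most variable member among Pax7WT libraries, at 87.3, 69.2 and 98.0. The short transcripts of Kat5 varied too. Kat5-204, a coding transcript of 471 bases, held 23.8%, 0% and 12.8% of the gene in Pax7WT and 17.2%, 8.19% and 0% in Pax7KR.

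Kat6a (ENSMUSG00000031540, chr8:22859535-22943259, plus strand) and Kat6b (ENSMUSG00000021767, chr14:21481434-21672478, plus strand) encode MOZ and MORF, which acetylate histone H3 together with BRPF scaffold proteins. Kat6a had a CPM of 260, 246 and 257 in Pax7WT and 259, 286 and 258 in Pax7KR, where Pax7KR replicate 2 was again the highest. Kat6b had a CPM of 72.6, 65.7 and 82.7 in Pax7WT and 72.2, 83.5 and 77.5 in Pax7KR. The genotypes overlapped for both genes. The log2 fold change was 0.07 ± 0.06 for Kat6a (SE, 95% interval -0.06 to 0.21, edgeR adjusted p = 0.998) and 0.08 ± 0.09 for Kat6b (SE, 95% interval -0.11 to 0.27, edgeR adjusted p = 0.998). Without Pax7KR replicate 2 the values were 0.024 and 0.023, and with transcript length offsets 0.11 and 0.01. Over the 6 fits that each drop 1 library, the Kat6b estimate ran from 0.0029, without Pax7WT replicate 2, to 0.17, without Pax7WT replicate 3. Kat6b-204 was the leading transcript of Kat6b, with 57.1% to 68.9% of the gene's TPM.

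Kat7 (ENSMUSG00000038909, chr11:95274259-95310246, minus strand) encodes HBO1, which works with JADE or BRPF scaffolds. Its CPM was 124, 120 and 116 in Pax7WT and 120, 113 and 113 in Pax7KR. The log2 fold change was -0.06 ± 0.06 (SE, 95% interval -0.19 to 0.07, edgeR adjusted p = 0.998), with a negative sign in each fit that left out a library (-0.09 to -0.03), and was -0.043 without Pax7KR replicate 2. This was the narrowest interval of the family, at a half-width of 0.13. With transcript length offsets the estimate was -0.14, the lowest value of any member under any alternative.

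Kat8 (ENSMUSG00000030801, chr7:127912516-127925837, plus strand) encodes the histone H4 acetyltransferase of the MSL and NSL complexes. It had 426 to 591 reads in a library. Its CPM was 21.2, 25.7 and 20.8 in Pax7WT and 23.1, 24.8 and 21.5 in Pax7KR, so all Pax7KR values lay inside the Pax7WT range. The log2 fold change was 0.04 ± 0.11 (SE, 95% interval -0.20 to 0.27, edgeR adjusted p = 0.998). In this fit the interval ran from 0.869-fold to 1.21-fold, and other fits moved the estimate, to 0.14 without Pax7WT replicate 2. The sign was not stable, with -0.017 without Pax7KR replicate 2 and -0.08 with transcript length offsets. The levels per length were 30.6, 36.0 and 31.8 TPM in Pax7WT and 33.0, 33.6 and 30.4 TPM in Pax7KR.

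The transcript makeup of Kat8 was read separately from its total. Kat8-201, the full-length coding transcript, held 60.9%, 60.8% and 53.3% of the gene's TPM in Pax7WT and 68.6%, 76.6% and 64.1% in Pax7KR. Kat8-204, an intron-retaining transcript of 660 bases, held 17.3%, 15.1% and 25.2% in Pax7WT and 10.7%, 10.8% and 13.9% in Pax7KR. The genotypes did not overlap for either. Among member transcripts with a mean share of 5% or more, the other such case was Kat5-208, a coding transcript of 366 bases with at most 44.9 reads. That made 3 of 35 transcripts, beside 3510 of 38709 transcripts of all genes (9.07%), so the share of members was near the background. These shares are a description with no test, and they were singled out after the values were seen. Kat8-204 rested on 23.8 to 51.4 reads in a library. The level of Kat8 protein-coding transcripts overlapped, at 21.7, 22.6 and 18.6 TPM in Pax7WT and 24.7, 26.8 and 21.3 TPM in Pax7KR.

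**Figure D3:**
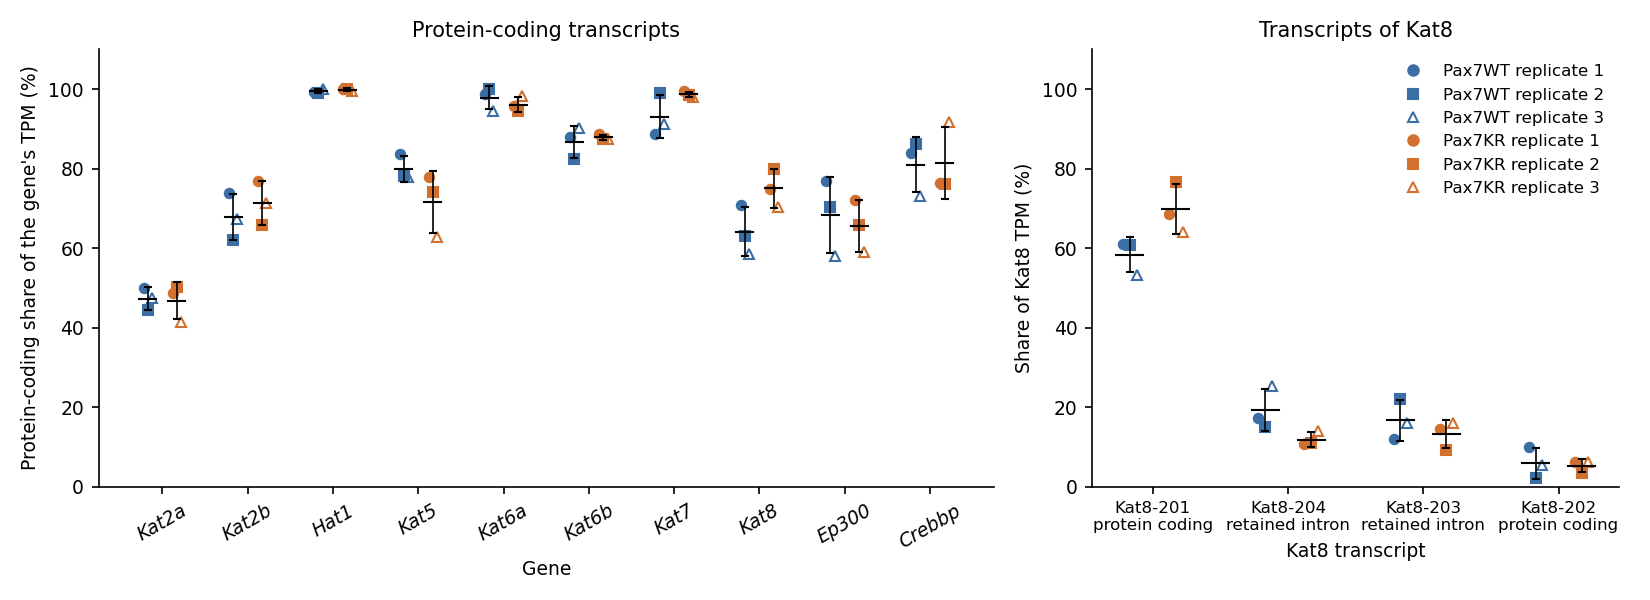
Left, share of each gene's TPM in protein-coding transcripts, by library; right, share of Kat8 TPM in each of its 4 transcripts. Blue is Pax7WT, orange is Pax7KR, and black bars are mean and SD (n = 3). Kat8-201 runs from 53.3% to 60.9% in Pax7WT and from 64.1% to 76.6% in Pax7KR.

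The genes whose profile over the 6 libraries was most like that of Kat8 were Tomm7, a subunit of the mitochondrial import channel, Uqcr11, a subunit of respiratory complex III, and Wbp1. Likeness was the root-mean-square difference of standardised log2(CPM + 1) values, which was 0.14, 0.181 and 0.209, among 9520 genes with a mean CPM of 10 or more. The ranking is a description over 6 libraries.

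Ep300 (ENSMUSG00000055024, chr15:81585351-81652077, plus strand) and Crebbp (ENSMUSG00000022521, chr16:4081328-4213997, minus strand) encode the paralogous coactivators p300 and CBP. Ep300 had a CPM of 210, 182 and 196 in Pax7WT and 194, 215 and 198 in Pax7KR. Its log2 fold change was 0.05 ± 0.07 (SE, 95% interval -0.10 to 0.20, edgeR adjusted p = 0.998). The estimate was -0.00049 without Pax7KR replicate 2 and 0.17 with transcript length offsets. Crebbp had a CPM of 164, 148 and 154 in Pax7WT and 175, 180 and 152 in Pax7KR. Crebbp was above all Pax7WT libraries in Pax7KR replicates 1 and 2 and inside their range in replicate 3. Its log2 fold change of 0.12 ± 0.07 (SE, 95% interval -0.03 to 0.28) had the smallest unadjusted p of the members, 0.112 in edgeR, with an adjusted p of 0.992. It stayed positive with each library left out (0.08 to 0.20), where the smallest adjusted p was 0.757 in edgeR. Without Pax7KR replicate 2 it was 0.076, and with transcript length offsets it was 0.17.

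Ratios within a library do not depend on scaling between libraries, so 4 pairs were compared by their log2 ratio of TPM with a two-sided exact permutation test, in which 3 against 3 cannot give a p below 0.1. Kat6a exceeded Kat6b 2.6-fold on average, and the log2 ratio was 1.33 ± 0.08 in Pax7WT and 1.42 ± 0.08 in Pax7KR (SD, n = 3, exact permutation p = 0.2, adjusted over 4 pairs 0.8). Ep300 exceeded Crebbp 1.52-fold, with log2 ratios of 0.50, 0.61 and 0.61 in Pax7WT and 0.30, 0.49 and 0.99 in Pax7KR. The Pax7KR libraries spread on both sides of the Pax7WT ones, and the difference was 0.02 (exact permutation p = 1.0). Kat2a to Kat2b differed by -0.03 (exact permutation p = 0.9, adjusted 1.0). Sirt2 exceeded Kat8 6.13-fold, with a log2 ratio of Kat8 to Sirt2 of -2.60 ± 0.11 in Pax7WT and -2.63 ± 0.12 in Pax7KR (SD, n = 3, exact permutation p = 0.7, adjusted 1.0). No pair reached the smallest p the design allows.

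**Figure D4:**
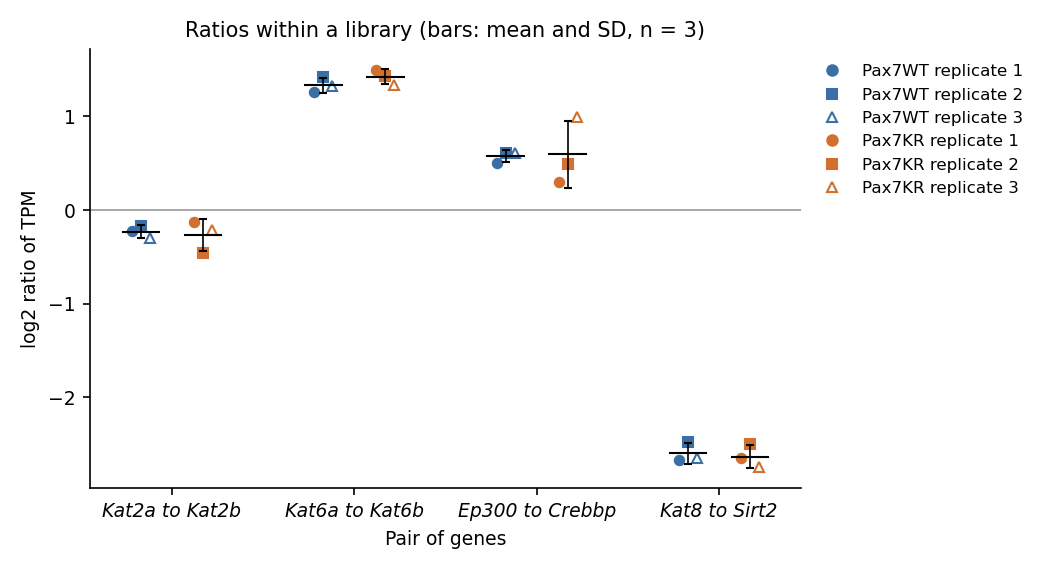
Log2 ratio of TPM within each library for 4 pairs of genes, with Pax7WT in blue, Pax7KR in orange and black bars for mean and SD (n = 3). The genotypes overlap in each pair, and Ep300 to Crebbp spreads from 0.30 to 0.99 among the Pax7KR libraries.

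Neither Sirt2 nor Pax7 was called. Sirt2, the deacetylase, had a CPM of 195, 197 and 192 in Pax7WT and 190, 179 and 199 in Pax7KR, with a log2 fold change of -0.04 ± 0.06 (SE, edgeR adjusted p = 0.998). Its paralogue Sirt1 had a log2 fold change of 0.00216 ± 0.09 (SE, edgeR adjusted p = 0.999). Pax7 itself, at 511 to 590 TPM over all libraries, had a log2 fold change of -0.05 ± 0.08 (SE, 95% interval -0.22 to 0.13, edgeR adjusted p = 0.998).

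Partners of the enzymes, other acetyltransferase genes and the deacetylase genes Sirt1 and Sirt2 were read from 8 lists with 92 different genes, all tested. edgeR called 0 of them in either direction, and DESeq2 called 0. An unadjusted p under 0.05 was found for 4 of the 92 (4.35%) and CPM that did not overlap for 10 of the 92 (10.9%), both near the values for all genes. Estimates were positive for 43 of the 92 and negative for 49, with a median of -0.004 on the log2 scale.

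Of 25 SAGA and ATAC subunits, partners of KAT2A and KAT2B, 12 had a positive and 13 a negative estimate. Eny2, of the SAGA deubiquitinase module, had a CPM of 71.5, 65.5 and 68.3 in Pax7WT and 61.8, 58.0 and 63.9 in Pax7KR, and its log2 fold change was -0.16 ± 0.07 (SE, edgeR adjusted p = 0.992). The Eny2 values did not overlap. The adaptor Tada3 had a log2 fold change of -0.22 ± 0.10 (SE, edgeR adjusted p = 0.992), with a mean CPM of 24.9 and 21.4. Of 5 histone partners of HAT1, all 5 had negative estimates, from -0.28 for Asf1b to -0.02 for Nasp, and 0 reached an unadjusted p under 0.05. These are histone chaperones and binding proteins, and Rbbp7 had a log2 fold change of -0.05 ± 0.07 (SE, edgeR adjusted p = 0.998). Asf1b, with a mean CPM of 1.40 and 1.15, had a standard error of 0.42.

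Of 17 subunits of TIP60/NuA4, the complex of KAT5, 12 had a positive and 5 a negative estimate, all within -0.13 to 0.11. The chromodomain protein Morf4l1 was at 0.09 ± 0.06 and Meaf6 at -0.13 ± 0.09 on the log2 scale (SE, edgeR adjusted p = 0.992 for both). Of 9 BRPF and JADE scaffolds and subunits, 4 were positive and 5 negative. Jade1, a scaffold of KAT7, had a CPM of 132, 106 and 109 in Pax7WT and 97.4, 98.1 and 109 in Pax7KR. The ranges met at 109, and the log2 fold change was -0.19 ± 0.09 (SE, edgeR adjusted p = 0.992). Ing4, which reads methylated histone H3, was at 0.13 ± 0.08 (SE, edgeR adjusted p = 0.992).

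Of 11 MSL and NSL subunits, partners of KAT8, 6 had a positive and 5 a negative estimate, with a median of 0.022. The CPM of the genotypes did not overlap for 3 of the 11 (27.3%, beside 10.3% of all genes), and an unadjusted p under 0.05 was reached by 0 of the 11. The share that did not overlap was 23.1% (3 of 13) for CBP and p300 partners and 15.4% (2 of 13) for other acetyltransferases. It was 8% (2 of 25) for SAGA and ATAC and 0% for each remaining list. Phf20 had a CPM of 77.7, 86.5 and 74.2 in Pax7WT and 87.3, 86.9 and 89.6 in Pax7KR, and its log2 fold change was 0.15 ± 0.07 (SE, edgeR adjusted p = 0.992). Kansl3, which like Phf20 belongs to NSL, was at 0.11 ± 0.06 (SE, edgeR adjusted p = 0.992). Neither passed the threshold.

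Of 13 partners of CBP and p300, 5 had a positive and 8 a negative estimate. An unadjusted p under 0.05 was reached by 2 of the 13 (15.4%, beside 4.68% of all genes). Cited2, which binds CBP and p300 and competes with other factors for them, had a CPM of 146, 137 and 178 in Pax7WT and 112, 120 and 131 in Pax7KR. All Pax7KR libraries lay below all Pax7WT libraries, with a log2 fold change of -0.34 ± 0.10 (SE, edgeR unadjusted p = 0.0063, adjusted p = 0.992). It was the 1 partner gene that any alternative called, with an adjusted p of 0.000889 in edgeR when genes with low reads were kept, where 157 of 24068 genes (0.652%) were called. Its adjusted p was above 0.1 under every other alternative, and its estimate ran from -0.42 to -0.22 with each library left out. Crtc1, a coactivator of CREB, had a CPM of 94.9, 96.6 and 96.6 in Pax7WT and 108, 110 and 106 in Pax7KR. Its log2 fold change was 0.17 ± 0.06 (SE, edgeR unadjusted p = 0.0119, adjusted p = 0.992).

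Of 13 other acetyltransferase genes, 4 had a positive and 9 a negative estimate. Naa50, an N-terminal acetyltransferase, was at -0.10 ± 0.06 and Gtf3c4, a subunit of TFIIIC, at -0.13 ± 0.08 on the log2 scale (SE, edgeR adjusted p = 0.992 for both). The widest estimate of the 92 genes, 0.84 for Esco2, came with a standard error of 0.79 and an unadjusted p of 0.302 in edgeR, and this gene was singled out after the values were seen.

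**Figure D5:**
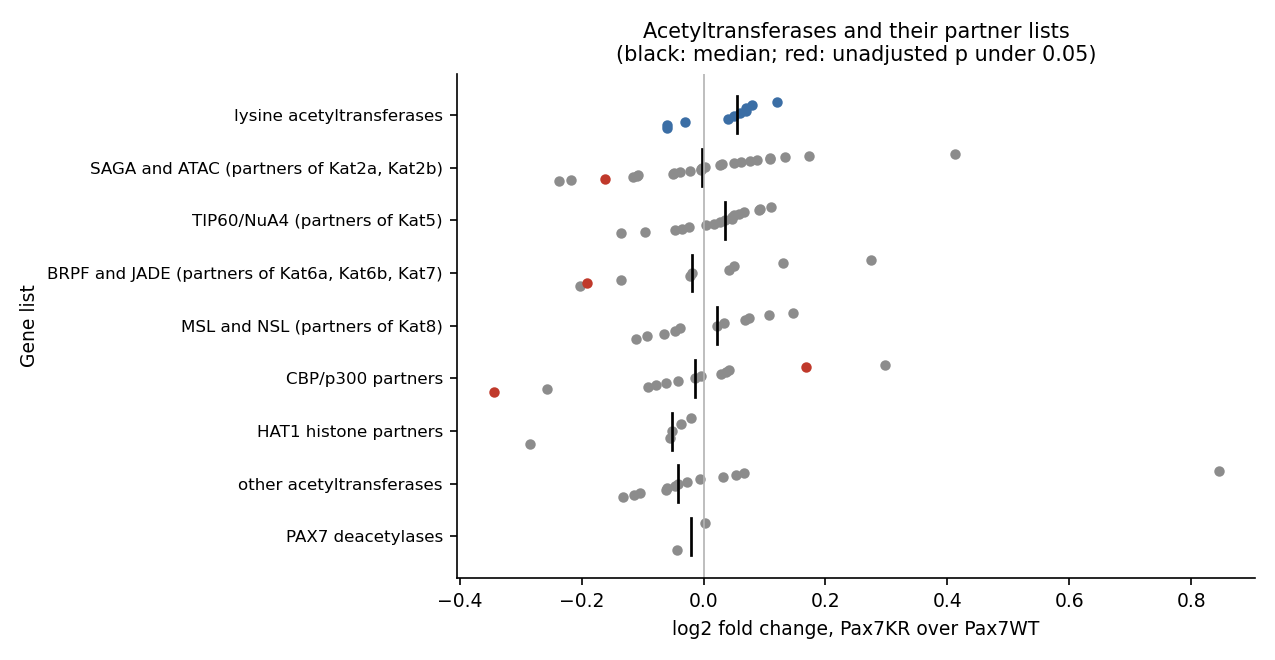
Log2 fold change of Pax7KR over Pax7WT for each acetyltransferase gene (blue) and each gene of the 8 other lists (grey), with the median of each list as a black line. These hold partners of the enzymes, other acetyltransferases and the deacetylase genes Sirt1 and Sirt2. The last list is labelled PAX7 deacetylases, though in the study over-expressed SIRT1 left PAX7 acetylation unchanged. The 4 red points have an unadjusted p under 0.05, and no gene passed the adjusted threshold.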

How the data were processed

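RNA of freshly isolated satellite cells was sequenced from 3 Pax7WT and 3 Pax7KR samples, grouped by their labels. The authors quantified reads with Salmon 1.3.0 against GENCODE transcripts of GRCm38 with genomic decoys. They deposited estimated counts per transcript, which are not normalized, together with TPM values and effective lengths. A deposited table of the authors' own comparison (mean normalized count, log2 fold change, standard error, p-value, adjusted p-value) was not used. Estimated counts were summed per gene and rounded. Of 140992 transcripts, 139791 matched an earlier GENCODE release by identifier, and the rest held 0.592% to 0.634% of reads. Coordinates are GRCm38 from that release.

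After a filter of at least 5 reads in at least 2 libraries, testing used edgeR 4.0.16 (TMM, robust quasi-likelihood, genotype alone), with Benjamini-Hochberg adjustment over 17152 genes and a cut-off of 0.1. Alternatives used DESeq2 1.42.0, limma 3.58.1, other scalings and filters, length offsets, a replicate block and each library left out, and the steps were tested on simulated data. R 4.3.3, Python 3.11.15 and scipy 1.17.1 were used. Library pairs differed by 11.6 to 27 chi-square units per gene, so none was a duplicate. The common biological coefficient of variation was 13.75%. P-values measure only the spread between these samples. Members and lists were chosen with earlier results of these data known. Named are the members, Pax7 and Sirt2, and the 3 genes most like Kat8. From each list of partners, other acetyltransferases and deacetylases, the genes past the cut-off are named, or else the 2 with the smallest unadjusted p. The protein-coding-only values were added after seeing the data.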

Additional observations from a re-analysis of the deposited data

How the results depend on the processing

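No alternative called a member, whose adjusted p was 0.757 or more in every fit. Of 150 member estimates over 15 alternatives, 139 kept their sign and 11 did not. With transcript length offsets Kat5 was -0.09 and Kat8 -0.08 in both edgeR and DESeq2, and with total reads Kat2a was 0.0026. With each library left out, Kat2a ran from -0.06 to 0.03, Kat8 from -0.02 to 0.14 and Ep300 from -0.01 to 0.10, Ep300 being -0.00049 without Pax7KR replicate 2. The other 7 members kept their sign there. Over all genes, 0 calls became 30 with DESeq2, 45 with DESeq2 and length offsets, 157 without a filter (1 of them a partner gene, Cited2), 13 with a replicate block, and 1 to 32 with a library left out, the most without Pax7KR replicate 3. The cause was not tested. Deviations from the genotype mean correlated at 0.002, 0.045 and -0.056 between same-numbered libraries, so no shared pattern was seen between them. With 3 libraries on each side this cannot exclude pairing by litter or preparation. The study took wild-type littermates as its controls, and the labels do not say which samples were littermates. The replicate block called 0 members, with Crebbp at 0.12. On the CPM scale the difference in the log2 ratio was -0.09 for Kat2a to Kat2b, -0.01 for Kat6a to Kat6b, -0.07 for Ep300 to Crebbp and 0.08 for Kat8 to Sirt2. With protein-coding transcripts only, it was -0.13 for Kat2a to Kat2b (exact permutation p = 0.2, against -0.03 with all transcripts) and 0.05 for Kat6a to Kat6b. It was -0.04 for Ep300 to Crebbp and 0.18 for Kat8 to Sirt2 (exact permutation p = 0.3). With a library left out, it ran from -0.1 to 0.06 for Kat2a to Kat2b, from -0.18 to 0.16 for Ep300 to Crebbp and from -0.1 to 0.03 for Kat8 to Sirt2. For Kat6a to Kat6b it stayed positive there, at 0.05 to 0.13. CPM, which grows with transcript length, ordered the members as Kat6a 1, Ep300 2, Crebbp 3, Kat7 4, Kat2b 5, Kat6b 6, Kat2a 7, Kat5 8, Kat8 9 and Hat1 10. With protein-coding transcripts only, Kat6a was at rank 3, Ep300 4, Kat2b 5, Crebbp 6, Kat8 7, Hat1 8 and Kat2a 9. Hat1 and Kat8, with 321 to 591 reads in a library, had the widest intervals, and the part of depth in this was not tested.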
